A study of Homo sapiens with 15 samples.

Results

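The ERBB receptors and their ligands were followed in PEO1, a human cell line of ovarian cancer, as all probe sets (groups of array probes for 1 transcript) annotated to exactly 1 of 10 listed genes: the receptors EGFR, ERBB2, ERBB3 and ERBB4 and the ligands AREG, EREG, HBEGF, TGFA, NRG1 and BTC. Of these 10 genes, 9 were measured, with 38 of the 54675 probe sets on the array: 21 for the 4 receptors and 17 for 5 ligands. AREG (amphiregulin) was not analysed here. Untreated parental cells grown in RPMI-1640 with serum were sorted by the surface proteins CD90 and CD133 into CD90-/CD133-, CD90+/CD133- and CD90+/CD133+ fractions, each measured as total RNA on 5 arrays with replicate numbers 1 to 5 (15 arrays). Biological replicates are stated in the methods for CD90-/CD133- and CD90+/CD133- cells, while the design text speaks of triplicates. Nothing says how the CD90+/CD133+ arrays were replicated. The spread behind the p-values was estimated over all 15 arrays, so p-values for that fraction may in part measure technical spread. All fractions come from a single cell line, which limits them as a model.

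ERBB receptors are membrane tyrosine kinases that pair up when a ligand binds and then drive the RAS-ERK and PI3K-AKT pathways. EGFR binds TGFA, AREG, EREG, HBEGF and BTC. ERBB3 and ERBB4 bind the neuregulins, ERBB3 has little kinase activity of its own, and ERBB2 has no known ligand and serves as a preferred partner of the others. The ligands are made as membrane proteins that are cut free by ADAM proteases, and in epithelial cancers, ovarian carcinoma among them, the system promotes growth and survival.

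THY1, which encodes CD90, lay between 57.8 and 101 on CD90-/CD133- arrays and between 728 and 2171 on CD90+ arrays, and PROM1, which encodes CD133, lay between 429 and 1652 on CD90+/CD133+ arrays and no higher than 156 on the others. All 10 epithelial markers checked, EPCAM and PAX8 among them, were detected in each fraction. Their summed intensity was 52444 to 65012 on CD90-/CD133- arrays, 36645 to 48969 on CD90+/CD133- arrays and 32887 to 45660 on CD90+/CD133+ arrays. The members moved both ways: in the same order the medians of the keratins were 18505, 12407 and 11418 for KRT18 and 9183, 4836 and 4997 for KRT8, while those of EPCAM were 5930, 7502 and 7446 and those of PAX8 658, 833 and 865. The 9 fibroblast markers summed to 327 to 391, 232 to 268 and 253 to 312 in the same order, with 4 of the 9 at or under the floor of 16 in each fraction, and 3 leukocyte markers to 83.9 to 108, 132 to 190.3 and 115 to 205.5, with PTPRC at the lowest value, 5, on every array. The 3 endothelial markers summed to at most 110.0. The gap between 3′ and 5′ ACTB control probe sets was 1.31 to 2.17 on the log2 scale in CD90-/CD133- cells, 1.82 to 3.31 in CD90+/CD133- and 1.03 to 2.76 in CD90+/CD133+ cells. For GAPDH it was 0.0233 to 0.0932, 0.0902 to 0.268 and 0.0118 to 0.118. The part of these values in the differences between fractions was not tested. Array medians were 29.4 to 32.4.

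The promoters of EGFR and HBEGF are shown because EGFR was the receptor that separated the fractions and HBEGF the ligand whose replicate numbers lay farthest apart. Each line is the 250 bases before the gene start in RefSeq (GRCh38.p14), 5′ to 3′ on the gene's strand, with GC boxes (GGGCGG or its complement CCGCCC, the letters bound by SP-family factors) in capitals. The EGFR window lies at chr7:55018767-55019016 on the plus strand and the HBEGF window at chr5:140346604-140346853 on the minus strand.
EGFR: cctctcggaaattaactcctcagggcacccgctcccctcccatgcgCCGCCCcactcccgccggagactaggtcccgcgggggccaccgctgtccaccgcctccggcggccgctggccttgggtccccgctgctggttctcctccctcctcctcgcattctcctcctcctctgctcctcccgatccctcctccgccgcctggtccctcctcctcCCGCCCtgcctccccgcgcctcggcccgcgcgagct
HBEGF: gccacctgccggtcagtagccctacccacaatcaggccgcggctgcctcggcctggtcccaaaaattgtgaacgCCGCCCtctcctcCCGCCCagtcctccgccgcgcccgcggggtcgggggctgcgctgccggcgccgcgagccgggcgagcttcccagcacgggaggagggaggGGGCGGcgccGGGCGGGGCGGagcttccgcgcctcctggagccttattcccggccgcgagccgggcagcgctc
The EGFR window held 2 GC boxes at 73.6% G and C, and the HBEGF window 5 at 76.4%. Of 35116 promoter windows of this length, 42.6% held at least 1 such box and 13.9% held at least 3. AP-1 letters (TGACTCA or TGAGTCA, found in 4.2% of windows) and TATA letters (TATAAA or TTTATA, 10.7%) were in neither window. A further EGFR start, at chr7:55109589-55109838 on the plus strand, had no GC box, 38.8% G and C, 2 AP-1 matches and 2 TATA matches. The arrays do not tell which start was used.

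The first question was how RNA of these genes differed between CD90+ and CD90-/CD133- cells. EGFR RNA was lower in both CD90+ fractions on each of its 3 bright probe sets (mean intensity of at least 64), by 2.20-fold to 3.55-fold in CD90+/CD133- and 2.75-fold to 4.21-fold in CD90+/CD133+ cells. ERBB3 was higher in CD90+/CD133- cells on 1 of 2 bright probe sets, a minor TGFA probe set was lower in both CD90+ fractions, and BTC was lower in CD90+/CD133+ cells at an adjusted p near the threshold. The brightest probe sets of ERBB2, EREG, HBEGF, TGFA and NRG1 passed the test in no comparison of fractions. In sorted bulk RNA, fewer cells that express a gene and less RNA per cell cannot be told apart.

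Calls are limma adjusted p values under 0.05, from 1 fit of all 15 arrays with the replicate number as a block, adjusted over 54613 probe sets. In CD90+/CD133- against CD90-/CD133- cells, 1 of the 38 probe sets was higher, where 11.5% of all probe sets were, and 9 were lower, where 11.2% of all were. In CD90+/CD133+ against CD90-/CD133- cells, none was higher, where 9.53% of all were, and 5 were lower, where 11.7% of all were. Between the 2 CD90+ fractions 1 of 38 was called, against 2.97% of all probe sets in either direction. Without replicate 3 the first comparison had 6 calls. Median centring of each array's log2 values gave 2 higher and 9 lower in the first comparison, 7 and 5 in the second and 9 and 4 in the third, with 5 of the 12 and 5 of the 13 calls on probe sets never above the floor. Of all 54613 probe sets it called 6602 higher and 6490 lower in the first comparison. In the second it called 23042 and 7062 of them, and in the third 19072 and 3113. Centring before the floor was set, tried after the data were seen, gave 1 and 9, 0 and 4, and none. Of all probe sets it called 6224 and 6077, 5995 and 5698, and 846 and 758. The median log2 difference of the 38 was -0.0023, -0.0194 and 0 in these comparisons, and that of all probe sets was 0 in each. Taking each gene by its brightest probe set, the counts were 1, 2 and 1 of 9 genes, all lower. Over all 19775 genes, 14% were higher and 16.2% lower in the first comparison, 13.1% and 15.8% in the second, and 3.46% differed in the third. The first and second comparisons share the CD90-/CD133- arrays.

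**Figure D1:**
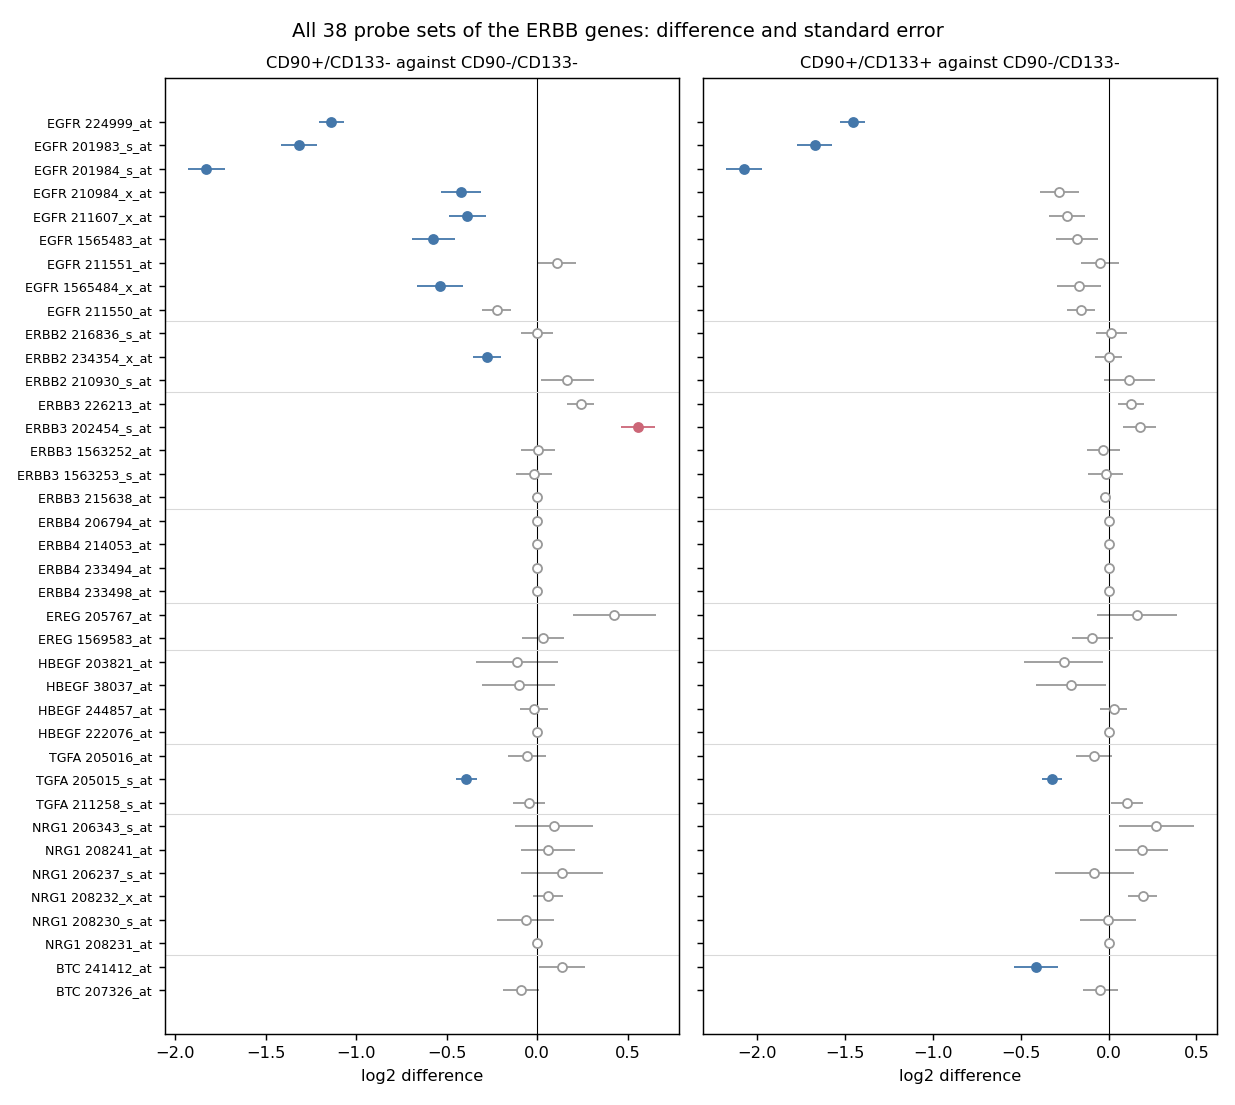
Log2 difference (points) and standard error (bars) of each of the 38 probe sets, with CD90+/CD133- on the left and CD90+/CD133+ on the right, each against CD90-/CD133-; filled points passed an adjusted p of 0.05 (blue lower, red higher). The 3 EGFR probe sets at the top lie between -1.14 and -2.08, and the other 35 between -0.57 and 0.56.

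EGFR had the widest coverage, with 9 probe sets. On the brightest, 224999_at, the intensities for replicates 1 to 5 were 1398, 2184, 2086, 2358 and 2116 in CD90-/CD133- cells, 632, 921, 891, 1059 and 1118 in CD90+/CD133- cells, and 589, 761, 765, 829 and 714 in CD90+/CD133+ cells. Each CD90-/CD133- array lay above all 10 CD90+ arrays, and within each fraction replicate 1 was the lowest. The mean was 1997 in CD90-/CD133- cells, with an SD of 0.30 in log2 units, and 907 in CD90+/CD133- cells, with an SD of 0.32. The log2 difference was -1.14 (SE 0.07, adjusted p = 1.66e-05) in CD90+/CD133- and -1.46 (SE 0.07, adjusted p = 5.94e-06) in CD90+/CD133+ cells, lower in 5 of 5 pairs each time.

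On 201983_s_at the intensities were 1129.9, 2003, 1812, 2195 and 1785 in CD90-/CD133- cells, 574, 701, 770.4, 672 and 807 in CD90+/CD133- cells, and 444, 587, 549.7, 547 and 618 in CD90+/CD133+ cells. The CD90-/CD133- arrays again lay above all the others. The log2 differences from them were -1.32 (SE 0.10, adjusted p = 4.79e-05) and -1.67 (adjusted p = 1.62e-05).

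On 201984_s_at the intensities were 914, 1214, 1008, 1248 and 815 in CD90-/CD133- cells, 268, 301, 254, 306 and 321 in CD90+/CD133- cells, and 234, 277, 248, 238 and 224 in CD90+/CD133+ cells. The gap between CD90-/CD133- arrays and the rest was the widest of the 3 probe sets. The log2 differences were -1.83 (SE 0.10, adjusted p = 1.16e-05) and -2.08 (adjusted p = 6.62e-06). The difference of these 3 probe sets from CD90-/CD133- cells passed the test under each alternative run for it.

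**Figure D2:**
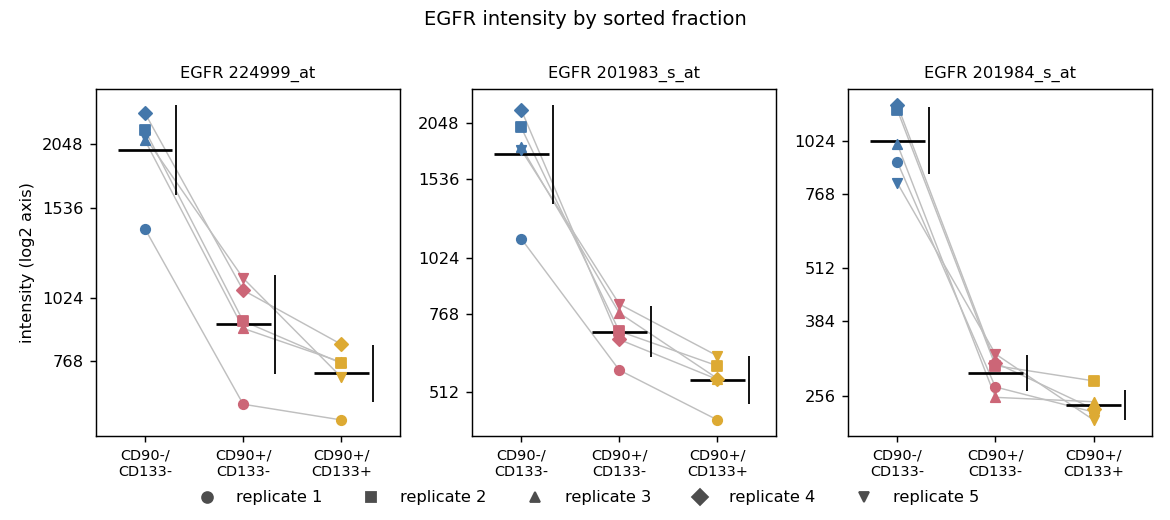
Intensity (log2 axis) of the 3 bright EGFR probe sets by fraction, 1 symbol per replicate number with grey lines joining arrays of the same number; black bars are means of log2 values and vertical lines their SD. The CD90-/CD133- arrays lie above all CD90+ arrays in each panel, by the widest margin on 201984_s_at.

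Between the CD90+ fractions, the CD90+/CD133+ array had less EGFR than its CD90+/CD133- partner in 5 of 5 pairs on each of the 3 bright probe sets, and the fractions overlapped. The log2 differences were -0.32 on 224999_at (adjusted p = 0.0496), -0.36 on 201983_s_at (adjusted p = 0.0965) and -0.25 on 201984_s_at (adjusted p = 0.248). The call on 224999_at was lost when any of 14 arrays or any replicate number was left out, without the replicate block (adjusted p = 0.588) and with centring before the floor. Apart from EGFR, no probe set of a receptor or ligand passed this test of CD133 within CD90+ cells.

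The other 6 EGFR probe sets stayed under 64 on every array, and 4 of them were lower in CD90+/CD133- cells, where 8.11% of all probe sets of similar dimness (mean between 16 and 64) were lower. On 1565483_at the intensities were 34.6, 43.5, 31.8, 39.4 and 40.7 in CD90-/CD133- cells, 29.0, 22.0, 22.7, 31.2 and 23.4 in CD90+/CD133- cells, and 37.7, 31.8, 30.9, 30.8 and 36.1 in CD90+/CD133+ cells. The first pair of fractions did not overlap on it, and the log2 difference was -0.57 (SE 0.12, adjusted p = 0.00748), a call lost when the arrays of these 2 fractions were fitted alone (adjusted p = 0.0600). On 1565484_x_at the values were 27.2, 30.8, 30.4, 31.1 and 25.7, then 18.3, 19.0, 19.0, 25.0 and 19.2, then 28.8, 23.9, 22.9, 22.8 and 31.4, with a log2 difference of -0.54 (adjusted p = 0.0155) in CD90+/CD133- cells, a call lost without replicate 1, 2 or 3.

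On 210984_x_at the intensities were 43.7, 59.5, 53.5, 63.1 and 57.1 in CD90-/CD133- cells, 47.2, 42.8, 34.4, 41.3 and 40.3 in CD90+/CD133- cells, and 49.0, 46.9, 45.5, 43.2 and 41.8 in CD90+/CD133+ cells. The log2 difference in CD90+/CD133- cells was -0.42 (adjusted p = 0.0246), lower in 4 of 5 pairs. On 211607_x_at the values were 48.1, 49.6, 54.8, 58.5 and 50.1, then 42.7, 49.1, 32.2, 45.2 and 32.9, then 44.4, 49.4, 41.7, 44.1 and 41.8, with a log2 difference of -0.39 (adjusted p = 0.0251), lower in 5 of 5 pairs. In both probe sets the fractions overlapped, and both calls were lost without replicate 3, 4 or 5, that of 210984_x_at also without replicate 2 and that of 211607_x_at without replicate 1. In CD90+/CD133+ cells none of the 6 dim EGFR probe sets passed, with log2 differences of -0.05 to -0.28, while 9.81% of all such dim probe sets were lower there. The remaining pair, 211550_at (-0.22, adjusted p = 0.0881) and 211551_at (0.11, adjusted p = 0.680), passed in neither CD90+ fraction.

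Among 9987 genes of mean intensity of at least 64, those whose brightest probe set followed EGFR 224999_at most closely over the 15 arrays were VPS35 (Pearson r = 0.982), ABCC1 (r = 0.975) and OPN3 (r = 0.968). VPS35 encodes a retromer subunit that returns membrane proteins from endosomes, ABCC1 a drug exporter and OPN3 an opsin. These points share fractions and replicate numbers, and the correlation is a description.

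ERBB2, the partner receptor without a ligand, did not separate the fractions. On 216836_s_at the intensities were 391, 619, 614, 739 and 742 in CD90-/CD133- cells, 397, 708, 656, 789 and 556 in CD90+/CD133- cells, and 433, 631, 715, 725 and 609 in CD90+/CD133+ cells. The fractions overlapped throughout and replicate 1 was the lowest in each. The log2 difference was -0.0015 (95% interval -0.20 to 0.20) in CD90+/CD133- and 0.02 (-0.18 to 0.21) in CD90+/CD133+ cells, both with an adjusted p of 1. The dim ERBB2 probe set 234354_x_at read 26.0, 24.7, 29.0, 28.9 and 31.5 in CD90-/CD133- cells, 20.4, 25.3, 21.5, 24.9 and 23.5 in CD90+/CD133- cells, and 26.3, 25.3, 31.9, 27.6 and 28.9 in CD90+/CD133+ cells. Its log2 difference in CD90+/CD133- cells was -0.28 (adjusted p = 0.0336), lower in 4 of 5 pairs, and it was lost when any of 8 arrays or 4 replicate numbers was left out. The third, 210930_s_at, lay between 14.3 and 27.1 and was not called.

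ERBB3, the receptor with weak kinase activity, was higher in CD90+/CD133- cells on 1 of its 2 bright probe sets. On 202454_s_at the intensities were 138, 316, 319, 360.5 and 289 in CD90-/CD133- cells, 219, 377, 524, 490.3 and 472 in CD90+/CD133- cells, and 194, 297, 348, 346 and 386 in CD90+/CD133+ cells. CD90+/CD133- exceeded CD90-/CD133- within each of 5 pairs, while the fractions overlapped, with replicate 1 low in each. The log2 difference was 0.56 (SE 0.09, adjusted p = 0.00295) in CD90+/CD133- cells, 0.18 (adjusted p = 0.278) in CD90+/CD133+ cells and -0.38 (adjusted p = 0.0724) from the former to the latter. Without the replicate block the first difference had an adjusted p of 0.326, and without replicate 1 it was 0.53 (adjusted p = 0.0125).

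On the brighter ERBB3 probe set, 226213_at, the intensities were 497, 1212, 1219, 1261 and 1270.0 in CD90-/CD133- cells, 584, 1231, 1521, 1526 and 1618 in CD90+/CD133- cells, and 659, 1086, 1398, 1293 and 1416 in CD90+/CD133+ cells. CD90+/CD133- was above CD90-/CD133- in 5 of 5 pairs. The log2 difference was 0.24 (SE 0.07, adjusted p = 0.0501), just outside the threshold, and it passed in 13 of 36 alternatives, without replicate 1 among them (0.24, adjusted p = 0.0417). In CD90+/CD133+ cells it was 0.13 (adjusted p = 0.331). The other 3 ERBB3 probe sets lay between 10.7 and 43.2 and were not called.

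ERBB4, the second neuregulin receptor, was at the floor. Of its 4 probe sets, 3 were under 16 on all 15 arrays, and 206794_at exceeded it on 1 array (16.3, CD90+/CD133+ replicate 1). No fold change can be read from values at the floor.

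Among the EGFR ligands, HBEGF (heparin-binding EGF-like growth factor) varied more between replicate numbers than between fractions. On 203821_at the intensities were 1091, 267, 269, 315 and 460.1 in CD90-/CD133- cells, 1848, 222, 305, 227 and 269 in CD90+/CD133- cells, and 1553, 217, 275, 252 and 201 in CD90+/CD133+ cells. Replicate 1 stood above the other 12 arrays in all fractions. The log2 difference was -0.11 (95% interval -0.63 to 0.40, adjusted p = 1) in CD90+/CD133- and -0.25 (-0.77 to 0.26, adjusted p = 0.609) in CD90+/CD133+ cells, and without replicate 1 it was -0.33 (adjusted p = 0.375) and -0.45 (adjusted p = 0.208). The second bright HBEGF probe set, 38037_at, ran in parallel, with replicate 1 at 606, 876 and 843 in the 3 fractions and the other 12 arrays between 109 and 225. The remaining pair lay between 28.0 and 39.1 (244857_at) and between 8.0 and 10.0 (222076_at).

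TGFA (transforming growth factor alpha) also had replicate 1 highest in each fraction on its brightest probe set. On 205016_at the intensities were 1046, 759, 787, 751 and 510.5 in CD90-/CD133- cells, 1239, 631, 658, 630.2 and 607 in CD90+/CD133- cells, and 1257, 714, 623, 589.7 and 549 in CD90+/CD133+ cells. The fractions overlapped, with log2 differences of -0.06 (95% interval -0.29 to 0.18, adjusted p = 0.982) and -0.08 (-0.32 to 0.15, adjusted p = 0.835). On 205015_s_at the intensities were 164, 114, 89.2, 97.1 and 64.3, then 134, 75.9, 74.3, 66.3 and 53.2, then 127, 83.3, 72.0, 78.5 and 56.3. Here both CD90+ fractions were lower than CD90-/CD133- cells in 5 of 5 pairs, by -0.39 (SE 0.06, adjusted p = 0.00135) and -0.32 (SE 0.06, adjusted p = 0.00382). Without the replicate block neither passed (adjusted p = 0.559 and 0.694), nor with the label code as block (adjusted p = 0.0656 and 0.136). The 2 bright TGFA probe sets thus differ in their calls, and the third (211258_s_at, 26.4 to 38.7) was not called.

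EREG (epiregulin) was dim and spread widely. On 205767_at the intensities were 155, 52.5, 57.6, 29.6 and 32.8 in CD90-/CD133- cells, 111, 69.0, 87.3, 68.3 and 43.6 in CD90+/CD133- cells, and 83.2, 71.1, 67.3, 44.6 and 45.2 in CD90+/CD133+ cells. CD90+/CD133- exceeded CD90-/CD133- in replicates 2 to 5 and lay below it in replicate 1. The log2 differences were 0.43 (SE 0.23, adjusted p = 0.273) and 0.16 (adjusted p = 0.889). Without replicate 1 the first became 0.65 (adjusted p = 0.0256) and the second 0.43 (adjusted p = 0.107).

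BTC (betacellulin), a ligand of EGFR and ERBB4, was also dim. On 241412_at the intensities were 52.0, 66.5, 56.6, 54.7 and 76.6 in CD90-/CD133- cells, 59.2, 67.5, 62.3, 68.1 and 78.3 in CD90+/CD133- cells, and 53.2, 51.6, 32.1, 48.5 and 45.6 in CD90+/CD133+ cells. Every CD90+/CD133+ array lay under every CD90+/CD133- array, with a log2 difference of -0.55 (SE 0.13, adjusted p = 0.0575). Against CD90-/CD133- cells the log2 difference was -0.41 (SE 0.13, adjusted p = 0.0488) in CD90+/CD133+ cells, lower in 4 of 5 pairs, and 0.14 (adjusted p = 0.610) in CD90+/CD133- cells. The call at 0.0488 was lost in 27 of 35 alternatives, 13 single arrays and 4 replicate numbers among them, and without the replicate block (adjusted p = 0.0890). The other BTC probe set, 207326_at, lay between 20.0 and 32.1.

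NRG1 (neuregulin 1), the ligand of ERBB3 and ERBB4, was bright on 1 of 6 probe sets. On 206343_s_at the intensities were 664, 671, 946, 798 and 834 in CD90-/CD133- cells, 1129.9, 918, 898, 984 and 422 in CD90+/CD133- cells, and 1125, 933, 949, 961 and 753 in CD90+/CD133+ cells. CD90+/CD133+ exceeded CD90-/CD133- in 4 of 5 pairs, and the lowest value of all was CD90+/CD133- replicate 5. The log2 differences were 0.09 (95% interval -0.40 to 0.58, adjusted p = 1) and 0.27 (-0.22 to 0.76, adjusted p = 0.543). None of the 6 was called in any comparison of fractions, and the other 5 lay between 5.0 and 81.0.

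**Figure D3:**
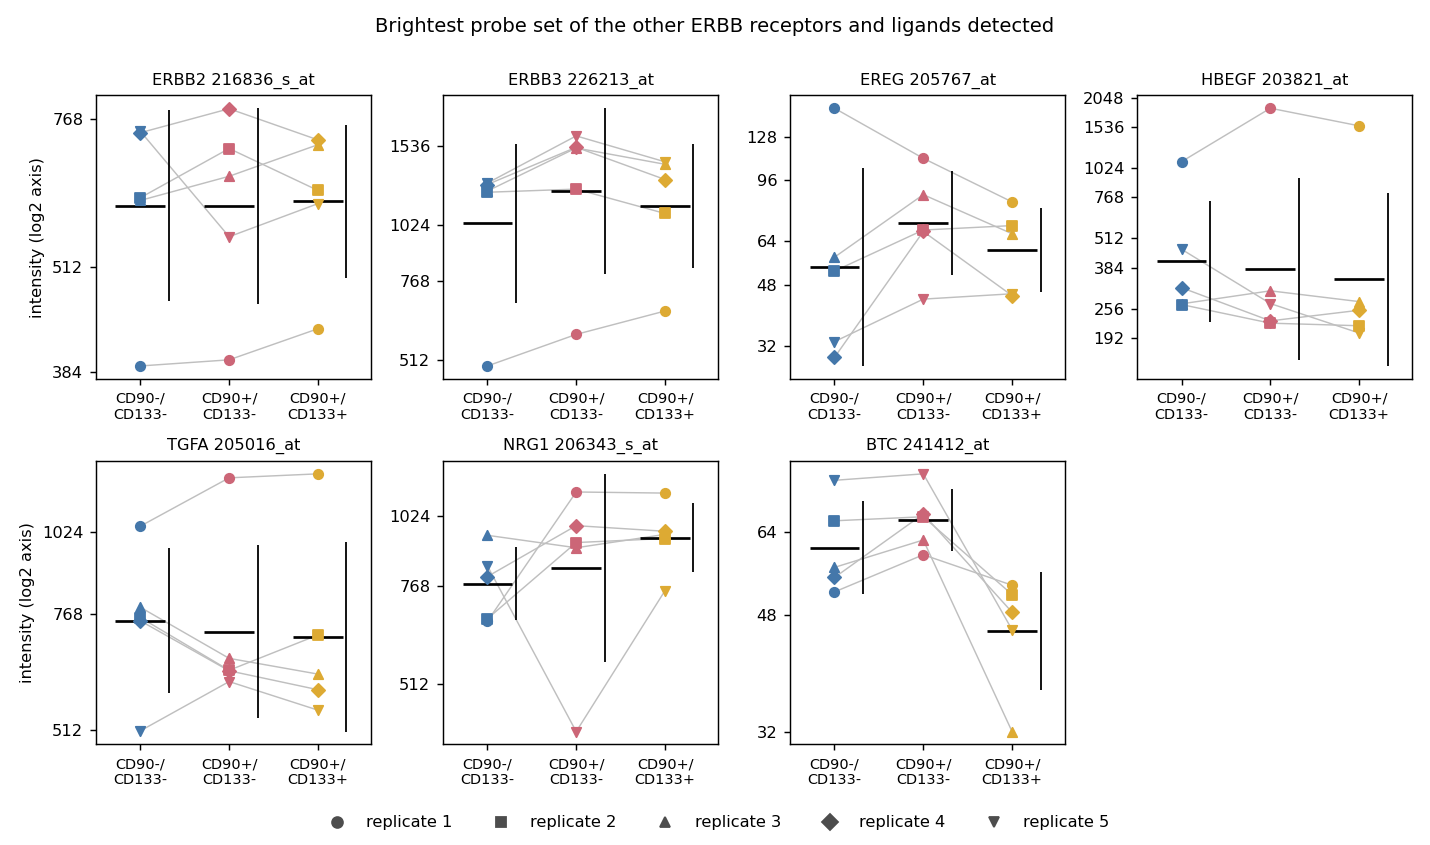
Intensity (log2 axis) of the brightest probe set of 7 genes by fraction, drawn as for EGFR; ERBB4, at the floor, is not drawn. Replicate 1 (circles) lies above all other arrays for HBEGF and TGFA and below them for ERBB2 and ERBB3, and BTC is lower on CD90+/CD133+ than on CD90+/CD133- arrays.

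The spread between replicate numbers was then set against that between fractions, a view chosen after these values were seen. Of the 11 bright probe sets of the ERBB genes, all 3 arrays of replicate 1 lay outside the other 12 arrays in 7, where this held for 10.4% of 18737 probe sets as bright. They lay above for both bright probe sets of HBEGF and of TGFA, and below for both of ERBB3 and for ERBB2 216836_s_at. Averaged over fractions, HBEGF was 5.48-fold and 5.32-fold higher in replicate 1 than in the others (203821_at and 38037_at) and TGFA 1.82-fold and 1.87-fold higher. ERBB3 was 2.31-fold and 2.06-fold higher in the others than in replicate 1, and ERBB2 1.65-fold. For HBEGF 203821_at the fraction means spanned 0.25 and the replicate means 2.64 on the log2 scale, whereas for EGFR 201984_s_at they spanned 2.08 and 0.27.

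A limma F-test of the replicate number called 9 of the 38 probe sets, and 1 of 38 without replicate 1. Of all probe sets it called 15.8%, a share that counts 14609 never over 16, which cannot be called. The share among bright probe sets alone was not computed, so the 15.8% is no background for them. In the main fit the F-test called 8 of the 11 bright ERBB probe sets. Its adjusted p was 0.00265 for HBEGF 203821_at, 0.00636 for TGFA 205016_at, 0.000580 for ERBB3 226213_at, 0.00685 for ERBB2 216836_s_at, 0.00810 for EGFR 224999_at and 0.0421 for EREG 205767_at. Replicate 5 stood apart in 1 of the 11 (TGFA 205015_s_at) and in 6.48% of all bright probe sets, and replicates 2, 3 and 4 in none of the 11. The labels give replicates 1, 2 and 3 a code each, and replicates 4 and 5 share one. The gap between 3′ and 5′ GAPDH control probe sets was 0.05 to 0.27 on the log2 scale in replicate 1 and 0.01 to 0.24 in the others. For ACTB the gap was 1.98 to 2.76 in replicate 1. In replicates 2 to 5 it was 1.64 to 1.84, 1.76 to 3.31, 1.03 to 2.31 and 1.28 to 2.19. The part of these gaps in the result was not tested.

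The same view of 14 bright genes that ERK signalling is known to induce or that feed back on it found replicate 1 above all other arrays in 5 and below in none, where over the 18737 bright probe sets it was above in 5.1% and below in 5.27%. These were the phosphatases DUSP4 (3.62-fold) and DUSP5 (3.62-fold), the inhibitor SPRY2 (2.61-fold), the AP-1 subunit FOSL1 (4.14-fold) and the receptor EPHA2 (1.74-fold). In the rest of the 14 genes replicate 1 overlapped the other arrays, with ratios to them from 0.84 (EGR1) to 1.48 (DUSP6). Among 29 bright genes of the other pathway lists, replicate 1 was above in none and below in 3 (RHBDF1, LRIG2 and SOS2). ERRFI1, 1 of these 29, was 2.17-fold higher in replicate 1 (F-test adjusted p = 0.0226) but overlapped the other arrays.

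**Figure D4:**
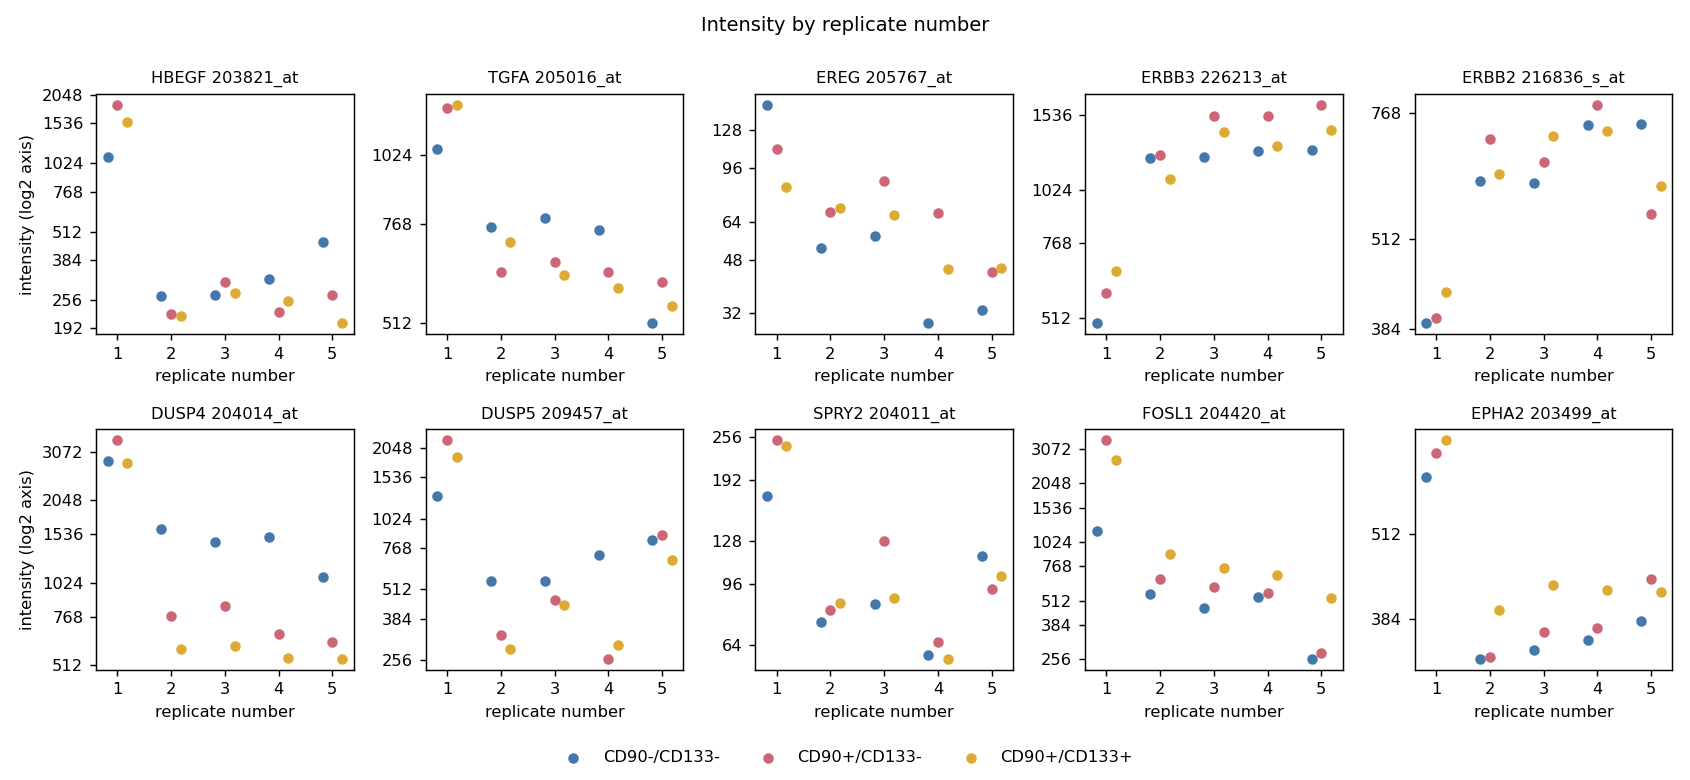
Intensity (log2 axis) against replicate number for 5 ERBB genes (top) and 5 ERK output genes (bottom), 1 point per array, coloured by fraction. Replicate 1 stands above the other numbers for HBEGF, TGFA and all 5 lower panels and below for ERBB3 and ERBB2, while its EREG values of 83.2 to 155 overlap the other arrays.

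The other genes of the pathway were taken from 7 lists of 59 genes, of which 52 were measured and the others were not analysed here. By brightest probe set, 17 were higher, 10 lower and 25 not called in CD90+/CD133- against CD90-/CD133- cells, that is 32.7% and 19.2%, beside the 14% and 16.2% of all genes given above. In CD90+/CD133+ cells 13 were higher and 9 lower (25.0% and 17.3%), beside 13.1% and 15.8% of all genes. Their median log2 difference was 0.07 and 0.04, and that of all genes was 0. In either direction 26 and 20 were called without replicate 1, 19 in the first comparison without replicate 4, 14 in the second without replicate 2, and 19 and 11 without the replicate block. Between the CD90+ fractions 1 of 52 was called (1.92%, beside 3.46% of all genes), CBL, at -0.33 (adjusted p = 0.0270).

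Of 6 genes of ligand shedding, 3 were higher in CD90+/CD133- cells and none lower, where 14% and 16.2% of all genes were. These were the proteases ADAM10 (0.56, SE 0.08, adjusted p = 0.00112), ADAM9 (0.48, adjusted p = 0.00637) and ADAM17 (0.46, adjusted p = 0.00773), the last the main protease for TGFA and HBEGF. ADAM17 lay between 598 and 867 on CD90-/CD133- arrays and between 769 and 1491 on CD90+/CD133- arrays, higher in 5 of 5 pairs. In CD90+/CD133+ cells ADAM10 and ADAM17 were higher (0.345 and 0.345) and RHBDF2, which helps ADAM17 mature, was lower (-0.26, adjusted p = 0.0350). Of the 3 probe sets of each protease, ADAM17 was called on 3 in CD90+/CD133- cells, and ADAM10 and ADAM9 on 1. In CD90+/CD133+ cells ADAM10 and ADAM17 were each called on 1 of 3.

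Of 10 genes listed under receptor restraint and degradation, 6 were higher and 2 lower in CD90+/CD133- cells, and 5 and 2 in CD90+/CD133+ cells, beside 14% and 16.2% of all genes in the first and 13.1% and 15.8% in the second comparison. LRIG2 and LRIG3 were among the 6, and whether they restrain these receptors was not tested. ERRFI1, an inhibitor that binds the EGFR kinase domain, lay between 130 and 407 on CD90-/CD133- arrays and between 279 and 574 on CD90+/CD133- arrays, higher in 5 of 5 pairs (1.09, SE 0.18, adjusted p = 0.00232). RNF41, a ubiquitin ligase for ERBB3, was higher by 0.83 (adjusted p = 0.00213) and LRIG3, of a family of receptor regulators, by 0.77 (adjusted p = 0.00298). CBLB, a ubiquitin ligase for EGFR, had log2 differences of -1.06 (adjusted p = 0.00183) and, in CD90+/CD133+ cells, -1.62 (adjusted p = 0.000204), called on 1 of its 3 probe sets in the first and on 2 of 3 in the second. CBL, a further ubiquitin ligase for EGFR, was higher by 0.57 (adjusted p = 0.000182, 5 of 5 pairs, 3 of 5 probe sets) in CD90+/CD133- and by 0.24 (adjusted p = 0.0163) in CD90+/CD133+ cells. PTPN1, of the same list, was lower in 5 of 5 pairs in both, on 1 of 4 probe sets. Its log2 differences were -0.68 (adjusted p = 5.64e-05) and -0.58 (adjusted p = 0.000126).

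Of 9 adaptors and exchange factors, 3 were higher and 2 lower in CD90+/CD133- cells, beside the same 14% and 16.2% of all genes. The RAS activator SOS1 (0.73, adjusted p = 0.000881, on 1 of 5 probe sets), the phosphatase PTPN11 (0.73, adjusted p = 0.000516, on 4 of 6) and SOS2 (0.59, adjusted p = 0.00978) were higher, and the adaptor GRB7 was lower (-0.97, adjusted p = 0.00121). Of 5 members of the RAS-ERK cascade, the kinase MAP2K1 lay between 596 and 684 on CD90-/CD133- arrays, 904 and 1081 on CD90+/CD133- arrays and 1020.0 and 1260.0 on CD90+/CD133+ arrays, and was higher in both (0.70, adjusted p = 1.3e-05, and 0.85). HRAS was lower in both (-0.71, adjusted p = 0.00126, and -0.58), and MAPK3 in CD90+/CD133- cells (-0.28, adjusted p = 0.0499). AKT1, 1 of 2 AKT kinases measured, was lower there as well (-0.40, adjusted p = 0.0292).

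Of 16 ERK feedback and output genes, 3 were higher and 2 lower in each CD90+ fraction, 18.8% and 12.5%, beside 14% and 16.2% of all genes in CD90+/CD133- and 13.1% and 15.8% in CD90+/CD133+ cells. DUSP4, a phosphatase that shuts off ERK, had log2 differences of -0.71 (adjusted p = 0.0414, lower in 4 of 5 pairs) and, in CD90+/CD133+ cells, -1.04 (adjusted p = 0.00740, 5 of 5 pairs). SPRY1, a feedback inhibitor, was dim in CD90-/CD133- cells (18.9 to 24.0) and higher in both CD90+ fractions (1.18 and 1.17, adjusted p = 0.00401 and 0.00441). FOSL1 was higher in CD90+/CD133+ cells (0.80, adjusted p = 0.0259) and ETV4, a transcription factor induced by ERK, lower in CD90+/CD133- cells (-0.63, adjusted p = 0.0244). Of 4 other EGF-family ligands, EGF itself was higher in CD90+/CD133- cells at low intensity (0.52, adjusted p = 0.0487, no array over 30.9) and NRG2 was lower (-0.43, adjusted p = 0.00247).

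**Figure D5:**
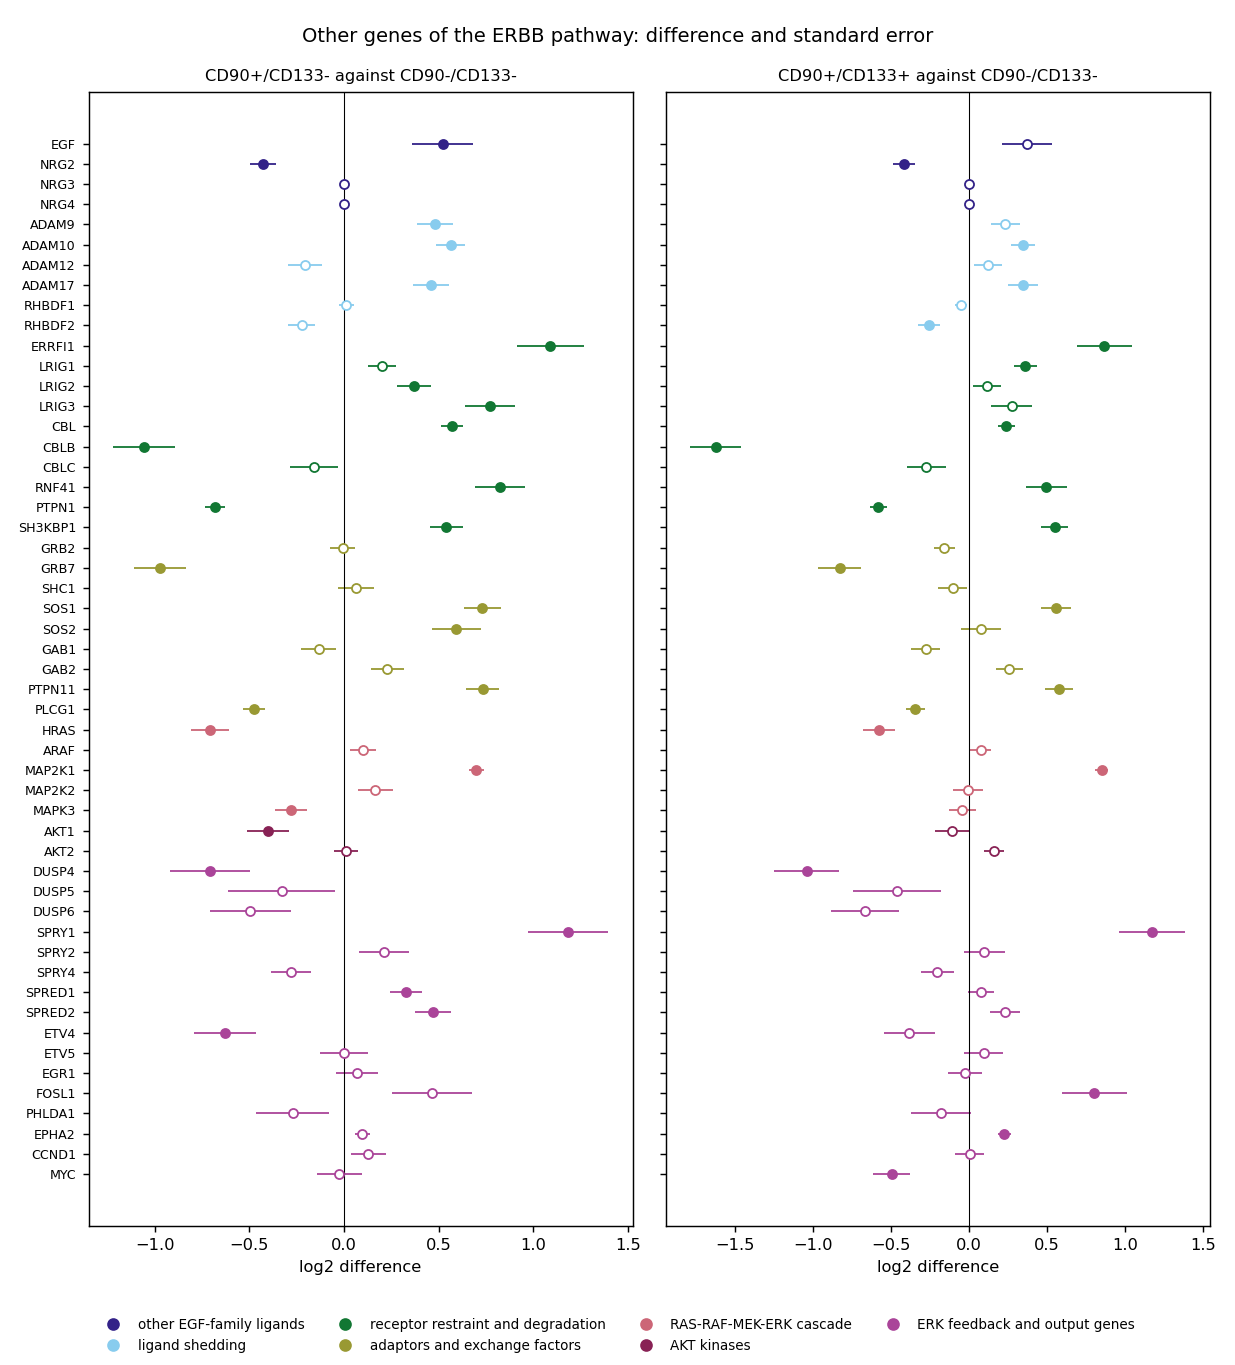
Log2 difference (points) and standard error (bars) of 52 other genes of the pathway in CD90+/CD133- (left) and CD90+/CD133+ cells (right), each against CD90-/CD133- cells, coloured by list; filled points passed an adjusted p of 0.05. Filled points lie on both sides of 0, from -1.06 for CBLB to 1.18 for SPRY1 on the left and from -1.62 to 1.17 on the right.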

How the data were processed

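RNA of 15 arrays (Affymetrix Human Genome U133 Plus 2.0, 3 fractions by 5 replicates) was analysed. What the authors deposited is 1 linear intensity per probe set and array, scaled by a cross-correlation method, and no value is below 5. The software that summarised the probes is not given in the sources used here. No further scaling was applied. Each intensity was raised to at least 16 before its log2 was used, so differences of dim probe sets are understated. From 32.7% to 34.6% of probe sets lay under 16 on each array, and the number of arrays limits the precision.

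After 62 control probe sets were set aside, 54613 were fitted together with limma 3.58.1 in R 4.3.3 (lmFit, contrasts.fit, eBayes, 2-sided, Benjamini-Hochberg, 8 residual degrees of freedom). The 41091 probe sets with 1 listed gene gave 19775 genes. Same-numbered arrays deviated together from their group means (correlations of 0.19 to 0.84 in 15 of 15 pairs, median -0.08 between different numbers), and all carry a code shared within the number, so the replicate number was a block. No arrays were identical. The fit was checked on simulated data.

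The genes and lists were chosen with earlier results of these data known. Named were all member probe sets and, of each pathway list, up to 4 called genes with the largest change. Other genes were named after their values were seen. Alternatives were the fit without the block, other blocks, scalings, floors, filters and probe set rules, an intensity trend, the methods' t-test, a 1.5-fold rule, and each array or replicate number left out. The promoter sequences come from RefSeq (GRCh38.p14). Windows of 8 of the 10 genes were used here, and any on chromosome 8, where NRG1 lies, were left out.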

Additional observations from a re-analysis of the deposited data

Results flagged for a closer look

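The highest or lowest array of a fraction was compared with the rest in 52 groups of 5 (Dixon's ratio of the gap to the range, critical value 0.71), and 10 groups were past it. Chance gives about 1 in 20 groups. Replicate 1 was the array in 8 of the 10. It was low for ERBB3 226213_at in CD90-/CD133- (ratio 0.95) and CD90+/CD133- cells (0.732), for ERBB3 202454_s_at in CD90-/CD133- cells (0.772) and for EGFR 224999_at in CD90-/CD133- cells (0.765). It was high for HBEGF 203821_at in CD90+/CD133- (0.849) and CD90+/CD133+ cells (0.848), for TGFA 205016_at in CD90+/CD133- cells (0.886), and for ERBB4 206794_at in CD90+/CD133+ cells (1, the 1 array above the floor). The ERBB4 ratio was fixed by the floor, because the other arrays of that group were all set to the same value. That flag, counted in the 8 and the 10, therefore says nothing about the array. NRG1 206343_s_at was low in CD90+/CD133- replicate 5 (0.767), and EGFR 1565484_x_at high in CD90+/CD133- replicate 4 (0.845, at 25.0).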

How the results depend on the processing

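In this paragraph counts are calls in CD90+/CD133- and in CD90+/CD133+ against CD90-/CD133- cells and between the CD90+ fractions, in that order, and the main counts were 10, 5 and 1 of 38 probe sets, 1, 2 and 1 of 9 genes and 27, 22 and 1 of 52 pathway genes. Without the replicate block they were 8, 3 and 0 probe sets, 1, 1 and 0 genes and 19, 11 and 0 pathway genes, and the calls of the 3 bright EGFR probe sets against CD90-/CD133- cells held. With the label code as block 10, 3 and 0 probe sets and 2, 1 and 0 genes were called. With the arrays of the 2 fractions compared alone, 6 probe sets were called in the first comparison, 1 gene in the second, and 0 probe sets, 0 genes and 0 pathway genes in the third. Quantile normalization left 1 gene in the second. Median centring, which moves fractions by at most 0.04 on the log2 scale, gave 2 genes in the first, 12 probe sets in the second and 13 probe sets, 3 genes and 14 pathway genes in the third. Because it was applied after the floor, it also moved probe sets that never exceeded the floor, which made up 5 of the 12 and 5 of the 13 calls. Of all 54613 probe sets it called 23042 higher and 7062 lower in the second and 19072 and 3113 in the third. Centring before the floor, tried after the data were seen, gave 10, 4 and 0 probe sets, 1, 1 and 0 genes and 26, 22 and 2 pathway genes. A floor of 5 gave 2 genes in the first, and 3 probe sets, 2 genes and 4 pathway genes in the third. A floor of 64 gave 5, 3 and 0 probe sets, and 1 and 0 genes in the second and the third. A restriction to a mean of at least 64 left 11 of the 38 probe sets and none of ERBB4, EREG and BTC. With it 6 probe sets and 2 genes were called in the first, 1 gene in the second, and 3 probe sets and 4 pathway genes in the third. The fit on 1 probe set a gene gave 2 genes in the first and 2 in the third, the mean of a gene's probe sets 2, 1 and 0 genes and 5 pathway genes in the third, and the intensity trend 2 genes in the first. The first pair of these gives no count of probe sets. The methods' t-test gave 7 probe sets and 3 pathway genes in the third unadjusted, and after Benjamini-Hochberg 5, 3 and 0 probe sets, 1 and 0 genes in the second and the third and 13, 9 and 0 pathway genes. The 1.5-fold rule gave 3, 3 and 0 probe sets, 1 and 0 genes in the second and the third and 15 and 8 pathway genes, and with an adjusted p as well 3, 3 and 0, 1 and 0, and 14, 7 and 0. Leaving out arrays or replicate numbers gave 6 to 12, 4 to 6 and 0 to 2 probe sets (6 without replicate 3) and 1 to 3, 1 to 2 and 0 to 2 genes. It gave 19 to 26, 14 to 23 (14 without replicate 2) and 0 to 3 pathway genes. Of the 38 probe sets, 9 differed among replicate numbers in the main fit. The count was 1 to 9 with a replicate number left out and 16 with median centring. Differences turned sign in CD90+/CD133+ cells for EREG 205767_at (-0.135 with a floor of 64, -0.073 between linear averages) and HBEGF 203821_at (0.0566 between linear averages), in CD90+/CD133- cells for HBEGF (0.26) and ERBB2 216836_s_at (0.00087) between linear averages, and between the CD90+ fractions for EGFR by the mean of its probe sets (0.0038). With arrays left out, signs turned for ERBB2 (-0.0505 to 0.102 and -0.0345 to 0.106 in the 2 CD90+ fractions) and, in CD90+/CD133- cells, for HBEGF (-0.331 to 0.0867), TGFA 205016_at (-0.138 to 0.0011) and NRG1 206343_s_at (-0.0757 to 0.362). The mean of all its probe sets gave EGFR a difference of -0.70 in both CD90+ fractions, still called. That mean weighs the dim EGFR probe sets, which differed less, as much as the 3 bright ones. The cause of the other changes was not tested. Probe sets near the floor carry little signal over background, so dim EGFR, ERBB2, EREG and BTC probe sets allow no firm size.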
